A study of Mus musculus with 45 samples.

Results

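Mouse embryonic stem cells (ESCs) in which the gene body of the long noncoding RNA gene 5430416N02Rik was deleted on both alleles (homozygous ΔG) were compared, after retinoic acid (RA), with cells that had lost it on one allele (heterozygous ΔG). The members are the 6 RNA-seq samples whose labels give RA, G and either het or hom. They are 3 samples per genotype, out of 24 RNA-seq samples and 45 samples in the series. All 6 come from D3, an ESC line of 129 strain background grown without feeder cells, and all 6 were kept in 2 uM RA for 48 h. Both genotypes carry the cassette that took the place of the gene body, a GFP and puromycin resistance reporter, on one allele in heterozygous and on both alleles in homozygous cells. In the study's own display of these libraries each genotype has a single clone number, so the effect of the genotype and that of the clone cannot be told apart. The p-values measure the spread between the samples of each group, which are described as biological replicates.

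The series asks what the 5430416N02Rik locus does in the growth and pluripotency of ESCs. It also holds the same ΔG lines without RA (ES, treated with the solvent DMSO for 48 h) and ΔPG lines, in which the promoter was removed together with the gene body. Expression is given as rlog (regularized log) values, which are on a log2 scale, so a difference of 1 means a doubling. The rlog transformation pulls genes with few reads towards their mean over samples, so differences of genes with low values are understated, and levels are compared here between samples of 1 gene and never between genes. The table carries no counts, and the depth of each library is unknown.

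RA is a vitamin A derivative that binds nuclear receptors and drives ESCs out of pluripotency. Cells that leave pluripotency under RA in adherent culture include cells resembling extraembryonic endoderm, the lineage that forms the yolk sac. Parietal endoderm secretes very large amounts of laminin and type IV collagen, the main components of basement membrane, and visceral endoderm takes up maternal proteins through the receptor cubilin. Trophoblast is the other extraembryonic lineage, which forms the fetal part of the placenta.

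The response to RA was present in both genotypes. The RA-induced enzyme gene Cyp26a1, which degrades RA, had mean rlog values of 4.19 (heterozygous) and 4.31 (homozygous) without RA and values between 9.79 and 10.10 in the 6 RA samples. Pou5f1 and Nanog, 2 core pluripotency factors, lay at means of 11.50 to 11.52 and 11.30 to 11.31 without RA and at 7.47 to 7.77 and 6.62 to 6.87 with RA. Endoderm regulators were raised in both genotypes too: the mean of Gata6 was 3.19 (heterozygous) and 3.18 (homozygous) without RA, and its RA values were 7.14, 7.19 and 7.42 in heterozygous and 7.30, 7.17 and 7.18 in homozygous samples. The 12 mitochondrially encoded genes tested had a lower mean in homozygous (10.32 to 10.39) than in heterozygous (10.51 to 10.58) RA samples, with none called in limma (10 of 12 at an unadjusted p under 0.05) and a median difference of -0.19 that was also -0.19 without RA. The part of this shift in the results was not tested. No library was left out.

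The targeted gene was low in every sample labelled homozygous. 5430416N02Rik (ENSMUSG00000084877.1) is a lincRNA gene on the minus strand at chr5:100849861-100858535 of NCBIM37. After RA its rlog values were 5.64, 5.52 and 5.58 in heterozygous and 2.63, 3.08 and 2.77 in homozygous samples. The groups were far apart, with a difference of -2.75 ± 0.14 (SE; adjusted p = 2.77e-11 in limma), close to the -2.79 without RA (difference between both 0.04, adjusted p = 0.926). Its neighbour Lin54, which encodes a subunit of the DREAM cell cycle complex, had 7.45, 7.55 and 7.66 in heterozygous and 7.44, 7.65 and 7.54 in homozygous samples, and the groups overlapped. The neighbour Sec31a, a coat protein of vesicles that leave the endoplasmic reticulum, was 0.21 ± 0.06 higher in homozygous samples (adjusted p = 0.0213), under the size limit used for calls. Mid1, a microtubule-associated ubiquitin ligase gene on the X chromosome, had 8.36, 8.33 and 8.44 in heterozygous and 8.19, 8.29 and 8.14 in homozygous samples. Its difference of -0.17 ± 0.06 did not pass the test after RA (adjusted p = 0.121), while that without RA was -0.59 (adjusted p = 0.00988), and both differed by 0.41 (adjusted p = 0.0157), under the size limit. For a single gene, 3 samples against 3 allow 20 splits, and the exact two-sided permutation p of 5430416N02Rik, 0.1, is the smallest that this design can give.

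Of 22048 genes that varied in the table, 471 were called different between the genotypes after RA, at a Benjamini-Hochberg adjusted p under 0.1 in limma and an absolute difference over 0.5. These are 2.14% of the genes tested. In homozygous samples 149 genes were higher (0.676%) and 322 were lower (1.46%), and 437 of the called genes are protein-coding. Counts of called list members given below are to be read beside these shares. The lists were chosen with earlier results of these data known, so a share above that of all genes is no test of a list. All genes tested include many with low values, whose differences rlog understates. The size limit set most of the count of 471, since 2433 genes passed the adjusted p alone and 473 genes differed by more than 0.5. In 465 called genes the 3 homozygous values did not overlap the 3 heterozygous values, against 21.8% of all genes tested. The calls were made on the same values, so separate groups are no further support for a called gene, here or below. Only 31 called genes differed by more than 1, of which 13 were higher and 18 lower. The median difference over all genes tested was 0.00, and 50.2% of the differences were positive.

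**Figure D1:**
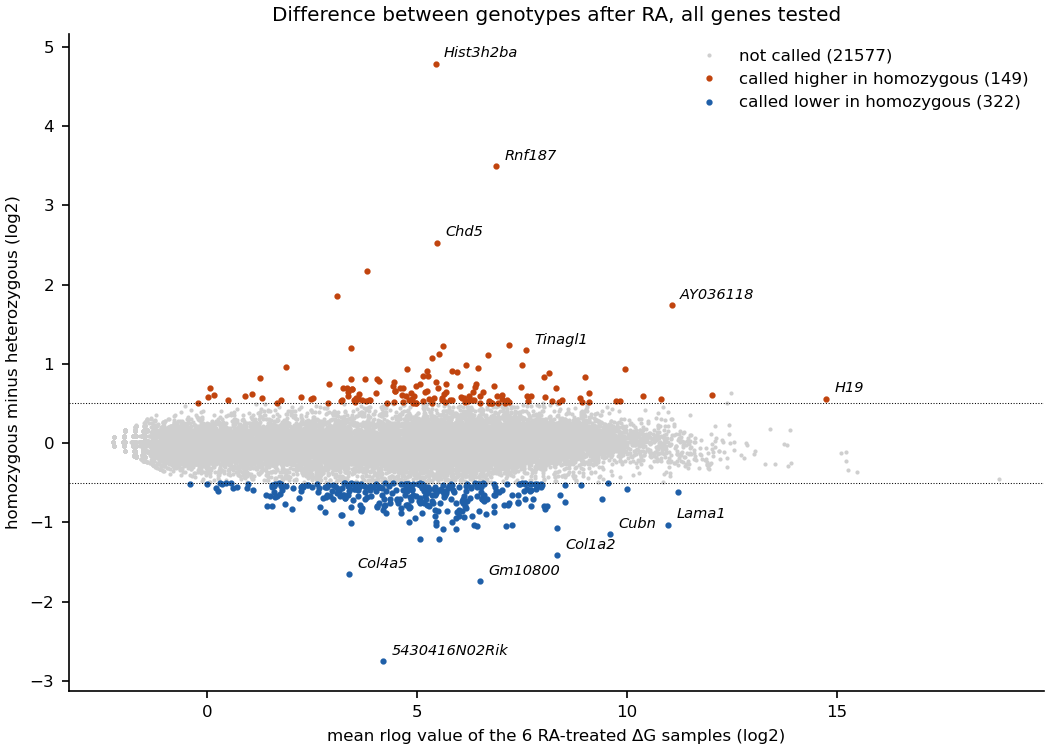
Mean rlog value of the 6 RA-treated ΔG samples (x axis, log2) against the homozygous minus heterozygous difference (y axis, log2) for all 22048 genes tested. Red and blue points are the 149 genes called higher and the 322 called lower, dotted lines mark 0.5 in either direction, and differences run from -2.75 (5430416N02Rik) to 4.79 (Hist3h2ba).

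A group of extraembryonic endoderm genes was lower in homozygous cells. Of 37 list members tested, 8 were called lower (21.6%, beside 1.46% of all genes tested) and none higher. Among the differences 25 were negative and 12 positive, and the list median was -0.19, beside 0.00 over all genes tested. The 8 genes are Cubn, Lama1, Srgn, Dab2, Pdgfra, Npl, Col4a1 and Col4a2. Cubn encodes cubilin, the endocytic receptor of visceral endoderm. Its values were 10.13, 10.19 and 10.22 in heterozygous and 9.04, 9.01 and 9.05 in homozygous samples, a difference of -1.15 ± 0.05 (adjusted p = 3.36e-13 in limma). The groups lay more than 1 unit apart, while without RA the gene was low in both (means 4.03 and 4.07). Dab2, an adaptor protein for the cubilin and megalin receptors, had 8.00, 7.81 and 7.96 in heterozygous and 7.29, 7.20 and 7.17 in homozygous samples. Its difference was -0.70 ± 0.08 (adjusted p = 2.44e-06), with no overlap. Pdgfra, a receptor kinase that marks primitive endoderm, had 8.65, 8.80 and 8.74 against 8.03, 8.12 and 8.06 (difference -0.66 ± 0.06, adjusted p = 3.92e-07). Srgn, which encodes the proteoglycan serglycin, differed by -1.0 and Npl, a sialic acid lyase, by -0.64.

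None of the transcription factors of the list was called, Gata4 included. Gata6 differed by -0.03 (adjusted p = 0.884), Sox17 by -0.21 (adjusted p = 0.28), Sox7 by -0.07 (adjusted p = 0.839) and Hnf4a by -0.29 (adjusted p = 0.281). Gata4, named after its values were seen, had 6.48, 6.62 and 6.65 in heterozygous and 6.09, 6.15 and 6.07 in homozygous samples. These groups did not overlap, but the difference of -0.48 (adjusted p = 0.00205) was just under the size limit. Foxa1 and Foxa2, factors of visceral and gut endoderm, differed by 0.32 (adjusted p = 0.109) and 0.31 (adjusted p = 0.283), and Lrp2, the megalin partner of cubilin, by 0.10 (adjusted p = 0.107). The mean over the whole list was 5.97 to 5.98 in heterozygous and 5.71 to 5.76 in homozygous samples. In bulk samples, fewer cells of a type and less RNA per cell cannot be told apart.

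Of 29 basement membrane genes 6 were called lower (20.7%, beside 1.46% of all genes tested) and none higher. The list had 18 negative differences and a median of -0.19. Lama1, Col4a1 and Col4a2 stand in both lists. Type IV collagen is a trimer whose chains are encoded by 3 head-to-head gene pairs, Col4a1 with Col4a2, Col4a3 with Col4a4 and Col4a5 with Col4a6. On NCBIM37 the starts of Col4a1 and Col4a2 are 21 bp apart and those of Col4a5 and Col4a6 are 1309 bp apart, on opposite strands in each pair. The promoter windows of the first pair, whose members had nearly equal differences, and of Col4a5, the lowest of the called matrix genes, are printed from 250 bases before to 50 after the start (RefSeq, GRCm38.p6). Capitals mark CCAAT and GGGCGG on either strand, which 37.4% and 35.7% of 32851 such mouse promoters hold. The windows are chr8:11312777-11313076 on the minus strand for Col4a1, chr8:11312555-11312854 on the plus strand for Col4a2, so that both overlap, and chrX:141475169-141475468 on the plus strand for Col4a5.
Col4a1: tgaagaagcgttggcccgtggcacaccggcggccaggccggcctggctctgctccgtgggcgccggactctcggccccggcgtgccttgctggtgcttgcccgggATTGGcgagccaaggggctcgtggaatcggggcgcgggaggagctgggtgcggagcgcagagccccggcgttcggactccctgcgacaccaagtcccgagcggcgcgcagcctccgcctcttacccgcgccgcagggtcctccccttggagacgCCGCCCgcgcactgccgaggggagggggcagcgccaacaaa
Col4a2: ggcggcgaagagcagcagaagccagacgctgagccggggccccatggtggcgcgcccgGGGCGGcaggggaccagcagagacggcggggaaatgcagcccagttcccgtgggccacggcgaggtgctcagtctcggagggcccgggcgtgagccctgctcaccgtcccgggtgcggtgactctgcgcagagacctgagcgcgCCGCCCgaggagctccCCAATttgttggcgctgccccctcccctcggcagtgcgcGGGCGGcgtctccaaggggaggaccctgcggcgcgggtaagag
Col4a5: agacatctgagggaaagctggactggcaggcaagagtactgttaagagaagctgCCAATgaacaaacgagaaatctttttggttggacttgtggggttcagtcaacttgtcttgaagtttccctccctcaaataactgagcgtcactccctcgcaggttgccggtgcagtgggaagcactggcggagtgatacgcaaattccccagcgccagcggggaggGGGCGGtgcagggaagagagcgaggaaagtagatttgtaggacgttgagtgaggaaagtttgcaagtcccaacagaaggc
The motif AGATAA, bound by zinc finger factors such as Gata4 and held on either strand by 11.2% of all promoters, was found in none of these 3 windows, which says only that these letters are not there.

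Col4a1 had rlog values of 11.50, 11.49 and 11.61 in heterozygous and 10.91, 10.91 and 10.93 in homozygous samples (difference -0.62 ± 0.03, adjusted p = 5.62e-11 in limma). Its partner Col4a2 had 10.30, 10.25 and 10.30 against 9.76, 9.70 and 9.66 (difference -0.58 ± 0.04, adjusted p = 9.85e-09). Neither gene's groups overlapped. Col4a5 had 4.07, 4.14 and 4.40 in heterozygous and 2.50, 2.65 and 2.52 in homozygous samples, a difference of -1.65 ± 0.15 (adjusted p = 1.34e-07). Without RA its means were 2.51 in heterozygous and 2.26 in homozygous cells, and the effect after RA minus that without RA was -1.40 (adjusted p = 7.47e-05). Its partner Col4a6 was called at -0.56 (adjusted p = 0.071), but its low values overlapped between the groups and the call was lost without the second homozygous, the third homozygous or the third heterozygous sample (-0.46, -0.54 and -0.33). Col4a3 and Col4a4 were near the lower end of the table and differed by -0.38 and -0.13, neither called.

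Laminin-111, the laminin of the early embryo and of parietal endoderm, joins the products of Lama1, Lamb1 and Lamc1. Lama1 had 11.47, 11.49 and 11.51 in heterozygous and 10.46 in each of the homozygous samples, which gave a difference of -1.03 ± 0.03 (adjusted p = 1.68e-15 in limma). Without RA it was also lower in homozygous cells, by -0.41 (adjusted p = 0.00756), and both differences differed by -0.62 (adjusted p = 8.72e-08). Lamb1 had 11.10, 11.09 and 11.10 against 10.60, 10.57 and 10.63 (-0.49, adjusted p = 1.43e-09) and Lamc1 differed by -0.41 (adjusted p = 1.39e-08), so both passed the adjusted p but not the size limit. All 3 chains were separated between the genotypes. Fras1, a protein that anchors epithelium to the matrix, was lower by -0.71 ± 0.08 (adjusted p = 5.38e-06). Other members did not follow: Nid2 (nidogen 2) differed by 0.26 (adjusted p = 6.06e-05), under the size limit, and Hspg2 (perlecan) and Agrn (agrin) by 0.04 and 0.03.

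**Figure D2:**
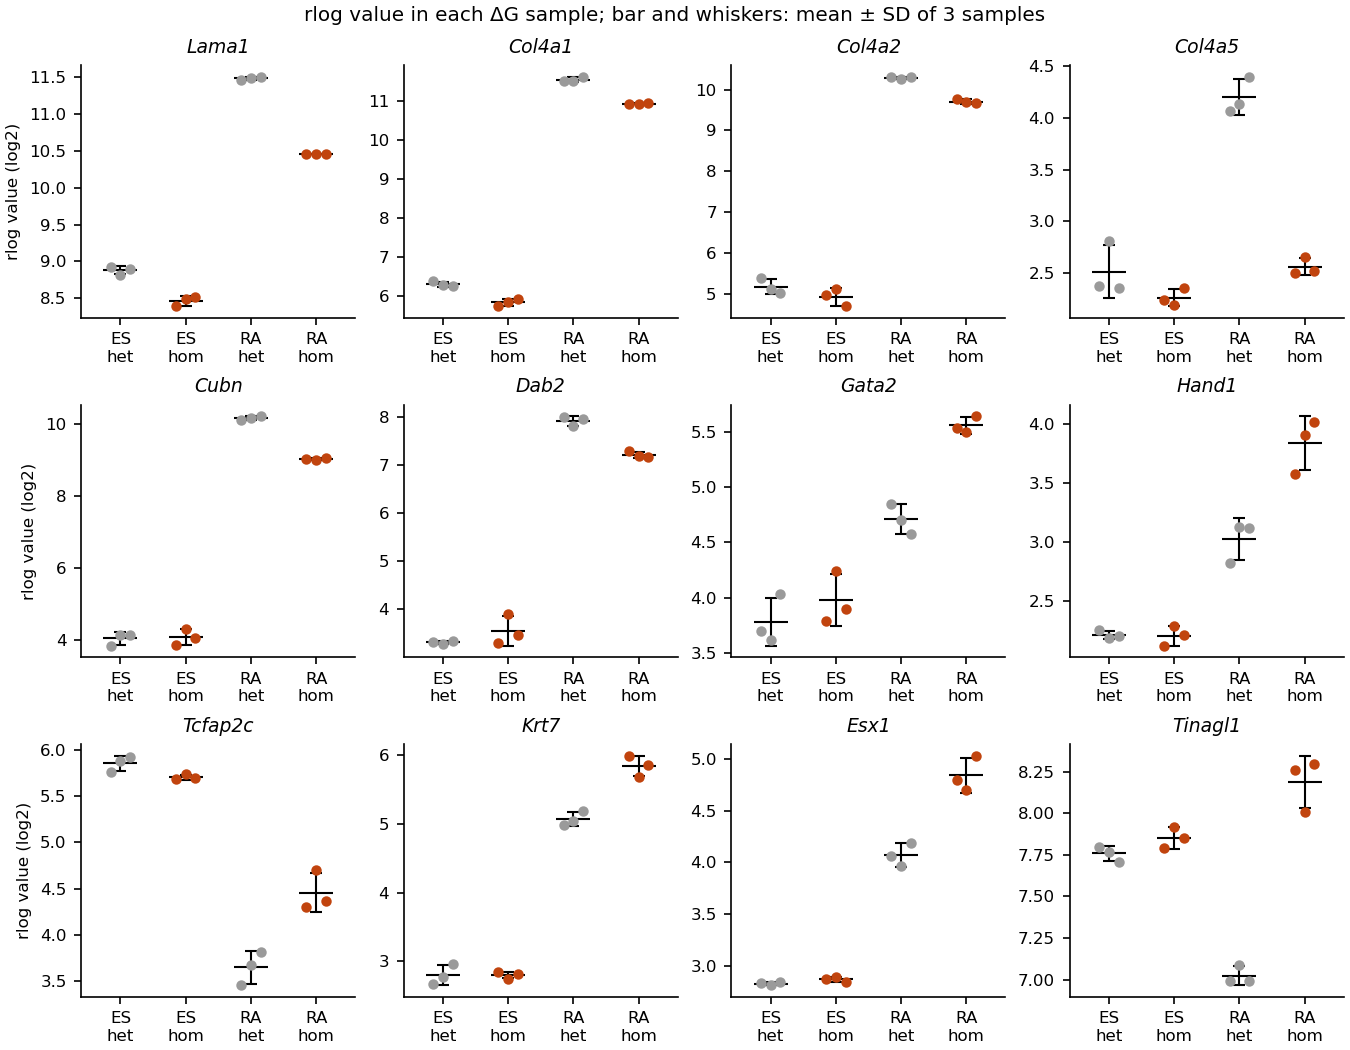
rlog value (y axis, log2, a scale of its own in each panel and not starting at 0) of 12 genes in the 3 samples of each ΔG group (x axis), with or without RA (RA, ES), heterozygous in grey and homozygous in red. Bars and whiskers give the mean ± SD (n = 3). The first 6 genes are lower and the last 6 higher in homozygous RA samples, and in all 12 the RA groups do not overlap.

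Among 38 interstitial collagens and matrix glycoproteins, 4 were called lower (Col1a2, Emid2, Tnc and Col12a1) and 1 higher (Bgn), with a list median of -0.13. Col1a2, the second chain of type I collagen, had 9.03, 8.99 and 9.11 in heterozygous and 7.69, 7.61 and 7.58 in homozygous samples. Its difference of -1.41 ± 0.06 (adjusted p = 2.76e-12 in limma) was the fourth lowest of all called genes. Col1a1, which encodes the other chain of the same trimer, had 5.56, 5.51 and 5.66 against 5.59, 4.98 and 5.43, so its groups overlapped (difference -0.24, adjusted p = 0.343). Tnc, the glycoprotein tenascin C, differed by -0.59 (adjusted p = 5.42e-05), Col12a1, a collagen that associates with type I fibrils, by -0.56 (adjusted p = 1.68e-05), and Emid2, the collagen gene now called Col26a1, by -0.75 (adjusted p = 0.000233). Bgn, the proteoglycan biglycan, was higher by 0.66 (adjusted p = 0.00729). Fibroblast markers were 2 of 11 lower (Col1a2 and Prrx1, a mesenchymal homeobox gene, -0.67, at low values). Their list mean was 4.31 to 4.39 in heterozygous and 4.00 to 4.15 in homozygous samples. This list holds Col1a1, Col1a2 and Col3a1 themselves, so its lower mean is in part the collagen difference. The part of fibroblast-like cells in the collagen differences was not tested.

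Genes that process matrix moved in both directions, with 2 of 31 called higher and 3 lower. The lysyl oxidase gene Loxl4, whose product crosslinks collagen, was among those higher, by 0.60 (adjusted p = 0.00835 in limma). Adamts1, a matrix metalloprotease, had 7.18, 7.20 and 7.31 in heterozygous and 6.41, 6.33 and 6.55 in homozygous samples (difference -0.80 ± 0.09, adjusted p = 3.27e-06). Mmp2, a gelatinase, and Loxl1 were lower by -0.53 and -0.51, at the edge of the size limit. Both lost the call without the second homozygous (-0.49 and -0.48) or the third heterozygous sample (-0.48 and -0.45). The collagen chaperone gene Serpinh1 and the prolyl hydroxylase gene P4ha1 differed by -0.29 and -0.30 after RA and by -0.67 and -0.63 without RA. Of 25 integrins and matrix receptors only Itga8 was called, at -0.70 (adjusted p = 4.09e-05). The list median was 0.03, and Itgb1, the common beta chain of laminin and collagen receptors, differed by 0.05 (adjusted p = 0.541).

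A group of trophoblast genes was higher in homozygous cells. Of 16 members tested, 5 were called higher (31.2%, beside 0.676% of all genes tested) and none lower. In this list 15 of 16 differences were positive, and the median was 0.29. Gata2, a zinc finger factor of trophoblast giant cells and blood progenitors, had 4.85, 4.70 and 4.58 in heterozygous and 5.53, 5.50 and 5.64 in homozygous samples (difference 0.85 ± 0.12, adjusted p = 6.24e-05 in limma). Hand1, a helix-loop-helix factor needed for giant cells and the heart, had 2.82, 3.13 and 3.12 against 3.58, 3.91 and 4.02 (0.81 ± 0.16, adjusted p = 0.00178). Tcfap2c, the AP-2 gamma factor of trophoblast stem cells and germ cells, had 3.45, 3.67 and 3.81 against 4.30, 4.70 and 4.37 (0.81 ± 0.15, adjusted p = 0.00108). In all 3 factors every homozygous sample lay above every heterozygous sample. Esx1, an X-linked homeobox gene of the placenta, and Krt7, a keratin of simple epithelia, were each higher by 0.77 (adjusted p = 0.000658 and 0.000147). The keratin genes Krt8, Krt18 and Krt19 differed by 0.31, 0.29 and 0.46, all with an adjusted p under the limit and all under the size limit.

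Other trophoblast genes set bounds to this group. Cdx2 and Elf5, which define trophoblast stem cells, differed by 0.24 (adjusted p = 0.408) and 0.09 (adjusted p = 0.707), and Gata3 by 0.30 (adjusted p = 0.117). The placental genes Tpbpa, Prl3d1 and Prl2c2 were listed at 0 in every sample. Tcfap2c was lower with RA (means 3.65 in heterozygous and 4.46 in homozygous samples) than without it (5.86 and 5.71). Gata2, Hand1, Esx1 and Krt7 had higher means with RA than without it in both genotypes. The list mean was 5.37 to 5.43 in heterozygous and 5.77 to 5.78 in homozygous RA samples, and 3.82 to 3.83 and 3.76 to 3.77 without RA. Several members belong to other lists as well, Hand1 to mesoderm, Tcfap2c and Gata3 to neural crest, and the keratins to epithelial genes.

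The remaining lineage lists had 1 or 2 called members each, which are 3.57% to 11.8% of the members tested, beside 2.14% of all genes tested. Of 28 pluripotency genes 1 was called, Fbxo15, a marker of undifferentiated ESCs, with 6.85, 6.93 and 6.95 in heterozygous and 6.05, 6.30 and 6.27 in homozygous samples (difference -0.70 ± 0.09, adjusted p = 3.87e-05 in limma). Pou5f1 differed by -0.13 (adjusted p = 0.363) and Nanog by 0.12 (adjusted p = 0.517), and the list median was 0.09. Of 15 formative and epiblast genes only Fgf5, a ligand of the primed epiblast, was called, with 3.92, 4.23 and 3.96 against 3.45, 3.12 and 3.20 (-0.78, adjusted p = 0.00163). Of 27 primitive streak and mesoderm genes, Hand1 and the VEGF receptor gene Kdr (0.57, adjusted p = 0.00266) were called higher, while the streak genes T and Mixl1 were low in all samples and differed by 0.03 and 0.05. Among 15 genes of definitive endoderm and gut only the tight junction gene Cldn4 was called, with 7.89, 7.87 and 8.11 against 8.66, 8.57 and 8.74 (0.70, adjusted p = 1.37e-06).

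Neural genes split. Of 29 tested, Tubb3, the neuronal beta tubulin, was called higher, with 5.69, 5.62 and 5.70 in heterozygous and 6.76, 6.65 and 6.58 in homozygous samples (difference 0.99 ± 0.10, adjusted p = 5.99e-07 in limma). Tubb3 was lower with RA than without it in both genotypes. Its means without RA were 7.23 (heterozygous) and 7.63 (homozygous), a difference of 0.40 (adjusted p = 0.0448 in limma), under the size limit. Ncam1, a neural adhesion molecule, was called lower at -0.50 (adjusted p = 0.000432), at the size limit. It lost the call without the second homozygous (-0.42) or the third heterozygous sample (-0.48). In cells without RA Ncam1 was called lower as well (-0.57). Pax6, a factor of neural progenitors, differed by -0.40 (adjusted p = 0.0223), and Nes, the progenitor filament nestin, by 0.26 (adjusted p = 0.00178), neither past the size limit. Of 17 neural crest and placode genes, Tcfap2c was higher and Crabp1 lower, while Sox10 and Tcfap2a were not called.

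Genes of RA handling and the Hox genes, which RA induces, differed in a few members. Of 23 retinoid genes 3 were called lower. Crabp1, which binds RA in the cytoplasm, had 5.27, 5.34 and 5.11 in heterozygous and 4.35, 4.33 and 4.61 in homozygous samples (difference -0.81 ± 0.13, adjusted p = 0.000239 in limma). The retinoid X receptor genes Rxrg and Rxra were lower by -0.59 (adjusted p = 0.00729) and -0.54 (adjusted p = 0.00015), Rxrg at very low values, and Rxra lost the call without the first (-0.48) or the second (-0.49) homozygous sample. The direct RA target Rarb, which encodes an RA receptor, had 8.05, 8.17 and 8.19 against 8.32, 8.34 and 8.36, a difference of 0.21 (adjusted p = 0.0506), and Cyp26a1 differed by -0.22 (adjusted p = 0.00223). Of 33 Hox genes and cofactors, Cdx1 (0.91 ± 0.14, adjusted p = 0.000195) and Hoxa5 (0.60, adjusted p = 0.000711) were called higher in limma. Cdx1 was lower with RA than without it in both genotypes. Its heterozygous and homozygous means were 8.24 and 8.59 without RA and 4.78 and 5.68 with RA. Those of Hoxa5 rose from 3.21 and 3.34 to 5.95 and 6.55. The early RA target Hoxb1 differed by 0.14 (adjusted p = 0.48), and the list median was -0.04.

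Among 36 WNT signalling genes 4 were called higher in homozygous cells and none lower, 14 differences were negative, and the list median was 0.03. They are the ligand genes Wnt6 (3.07, 2.87 and 2.71 in heterozygous, 3.70, 3.61 and 3.43 in homozygous samples, difference 0.70, adjusted p = 0.00466 in limma), Wnt7b (0.58, adjusted p = 0.0219) and Wnt4 (0.57, adjusted p = 0.033), with Cdx1 as a target. The values of all 3 ligands were low. Wnt7b lost the call without the first homozygous sample (0.49), and Wnt4 without the second homozygous (0.56) or the second heterozygous sample (0.45). Axin2 and Lef1, common readouts of the canonical pathway, differed by -0.27 (adjusted p = 0.18) and -0.01 (adjusted p = 0.98).

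In the FGF list of 30 genes Fgf5 was lower and Spry1, a feedback inhibitor of receptor kinase signalling, was higher, with 5.92, 5.97 and 5.97 in heterozygous and 6.43, 6.49 and 6.54 in homozygous samples (difference 0.53, adjusted p = 0.000796 in limma). Of 39 BMP and TGF-beta genes 1 was called, the ligand gene Bmp5 (-0.57, adjusted p = 0.0304), and it lost the call without the second homozygous sample (-0.41). The BMP targets Id1 and Id2 differed by 0.23 and -0.17. Of 29 Notch and Hedgehog genes 2 were called higher, among them the Notch ligand gene Dll4 (0.61, adjusted p = 0.00204), at low values. Of 21 YAP and contractile targets 1 was called higher, while Ctgf and Cyr61, the most used YAP targets, differed by 0.25 and 0.14 (adjusted p = 0.186 and 0.338).

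Growth factor receptors and guidance genes held further calls. Of 42 growth factor genes and receptors, Igfbp5, a binding protein of insulin-like growth factors, had 8.93, 8.89 and 8.87 in heterozygous and 8.16, 8.07 and 8.23 in homozygous samples (difference -0.74 ± 0.06, adjusted p = 4.72e-08 in limma). Pdgfra was lower as given above, and the VEGF receptor genes Kdr and Flt1 were higher by 0.57 and 0.50. Flt1 lost the call without the third homozygous (0.48) or the third heterozygous sample (0.42), and Kdr without the second heterozygous sample (0.49). Of 20 semaphorin, netrin and guidance genes 4 were called lower and none higher, with a list median of -0.16. Robo1, the receptor of Slit proteins, had 8.48, 8.40 and 8.43 against 7.73, 7.58 and 7.60 (-0.80 ± 0.07, adjusted p = 8.66e-08), and was also called lower without RA (-0.81). Its ligand gene Slit2 differed by -0.57 (adjusted p = 0.00117), without the third heterozygous sample by -0.46, no longer called. Sema6d differed by -0.82 (adjusted p = 0.000593) and Unc5c, a netrin receptor, by -0.50 (adjusted p = 0.0274), and the latter lost the call without the second homozygous (-0.49) or the first heterozygous sample (-0.44).

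In the epithelial and mesenchymal list of 29 genes, Krt7 and Cldn4 were higher and Cdh11, a mesenchymal cadherin, lower (-0.67, adjusted p = 0.00481 in limma). Cdh1, the epithelial E-cadherin, had 9.82, 9.75 and 9.74 in heterozygous and 10.05, 10.06 and 10.12 in homozygous samples, separated but under the size limit (0.31, adjusted p = 5.96e-05), and Epcam differed by -0.15. Of 21 imprinted genes 2 were called higher. H19, a maternally expressed noncoding RNA, had 14.46, 14.47 and 14.44 against 14.99, 15.02 and 15.03 (0.56 ± 0.01, adjusted p = 6e-18), a difference that was 0.00 under quantile normalization, which forces the most abundant values of all samples to be equal. Dlk1, a paternally expressed gene, differed by 0.61 (adjusted p = 0.000158). In limma none of 17 p53 targets and none of 20 replication-dependent histone genes was called. Beside the 2.14% called of all genes tested, lists of this size can hold no call. By unadjusted limma p, 4 and 5 of these genes were under 0.05, and Cdkn1a, the p53-induced cell cycle inhibitor, differed by 0.01.

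**Figure D3:**
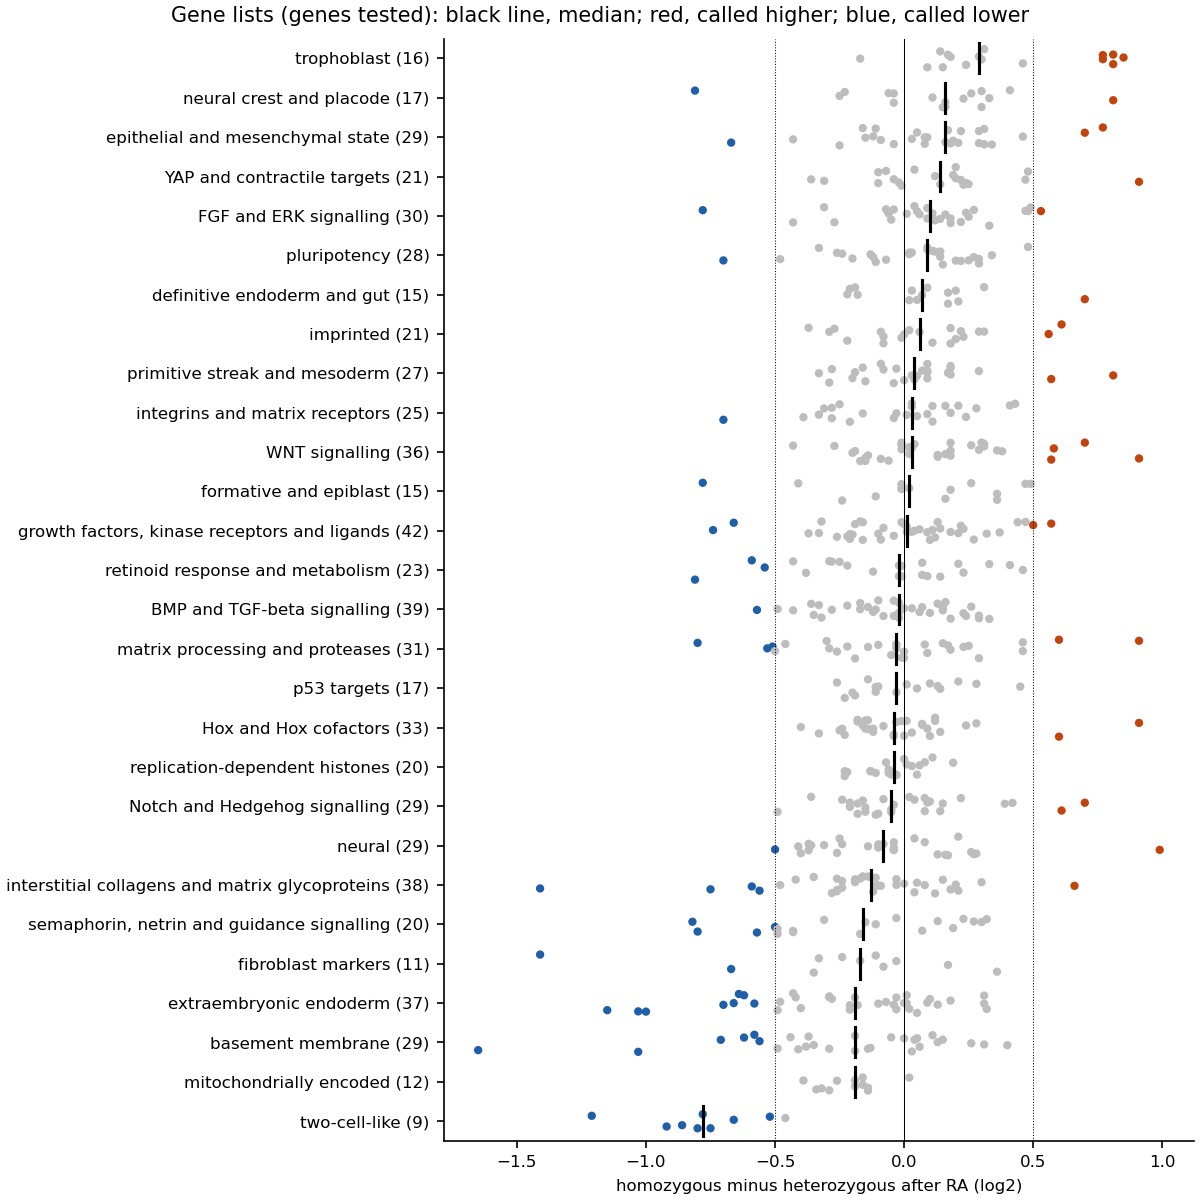
Homozygous minus heterozygous difference after RA (x axis, log2) of each list member tested, with the lists ordered by their median (black line) and the number of genes tested in brackets. Red points are called higher and blue points lower, and medians run from 0.29 (trophoblast) to -0.78 (genes of the two-cell-like state).

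Genes of the two-cell-like state, a rare state of ESC cultures that expresses transcripts of the early cleavage embryo, were the list with the lowest median. Of 9 members tested 8 were called lower (88.9%, beside 1.46% of all genes tested), all 9 differences were negative, and the median was -0.78. Zscan4d, which takes part in telomere lengthening in ESCs, had 8.49, 8.50 and 8.52 in heterozygous and 7.73, 7.68 and 7.70 in homozygous samples (difference -0.80 ± 0.06, adjusted p = 2.61e-08 in limma). Zscan4c had 7.74, 7.71 and 7.86 against 6.98, 7.12 and 6.95 (-0.75, adjusted p = 1.66e-06), Zfp352 differed by -0.86 and Tdpoz4 by -1.21. All 4 were separated between the genotypes. Dux, a factor that activates these genes, differed by -0.46 (adjusted p = 0.052), under the size limit. Without RA, 3 of the 9 were called lower and the median was -0.34, and only Dub1 and Zfp352 were called for the difference between RA and ES (-0.76 and -0.60). The Zscan4 genes and several other members are near-identical copies that can share reads, so they are not independent, and their single values are uncertain.

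The largest differences after RA were in genes outside the lists. Hist3h2ba, a histone gene, had 2.79, 2.91 and 3.44 in heterozygous and 7.93, 7.74 and 7.85 in homozygous samples (difference 4.79 ± 0.14, adjusted p = 1.67e-15 in limma). Rnf187, a ubiquitin ligase gene beside it, had 5.20, 5.08 and 5.15 against 8.61, 8.57 and 8.75 (3.50 ± 0.09, adjusted p = 6.57e-17). The low group of each gene and its high group were separated by several units. Without RA the differences were 3.28 and 3.36. Of 26 genes tested within 300 kb of the Rnf187 start on chromosome 11 (NCBIM37), 6 were called higher and none lower. They are Rnf187, Hist3h2ba, Hist3h2bb-ps (1.86), Hist3h2a (0.96), Trim17 (0.82) and Gm12260 (2.17), and their starts lie between 0 and 22.9 kb from that of Rnf187. Trim11 at 39.2 kb and Zfp39 at -34.7 kb differed by 0.18 and 0.12, neither called. Hist3h2a and Trim17 overlap on the same strand, and histone genes have similar copies, so single values in this cluster are uncertain. In RA-treated ΔPG cells Rnf187 and Hist3h2ba differed by -0.06 and 0.11, with heterozygous and homozygous means of 9.02 and 8.95 (Rnf187) and 8.12 and 8.23 (Hist3h2ba). Gm12260 had 5.45 and 5.46 there, against 2.73 and 4.90 in ΔG. In all 3 genes both ΔPG means lay nearer to the homozygous than to the heterozygous ΔG mean (heterozygous and homozygous ΔG means 5.14 and 8.64 for Rnf187, 3.05 and 7.84 for Hist3h2ba). The ΔPG values come from a table that was normalized separately, so levels are only set side by side. Which ΔG genotype departs from the other lines was not tested.

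**Figure D4:**
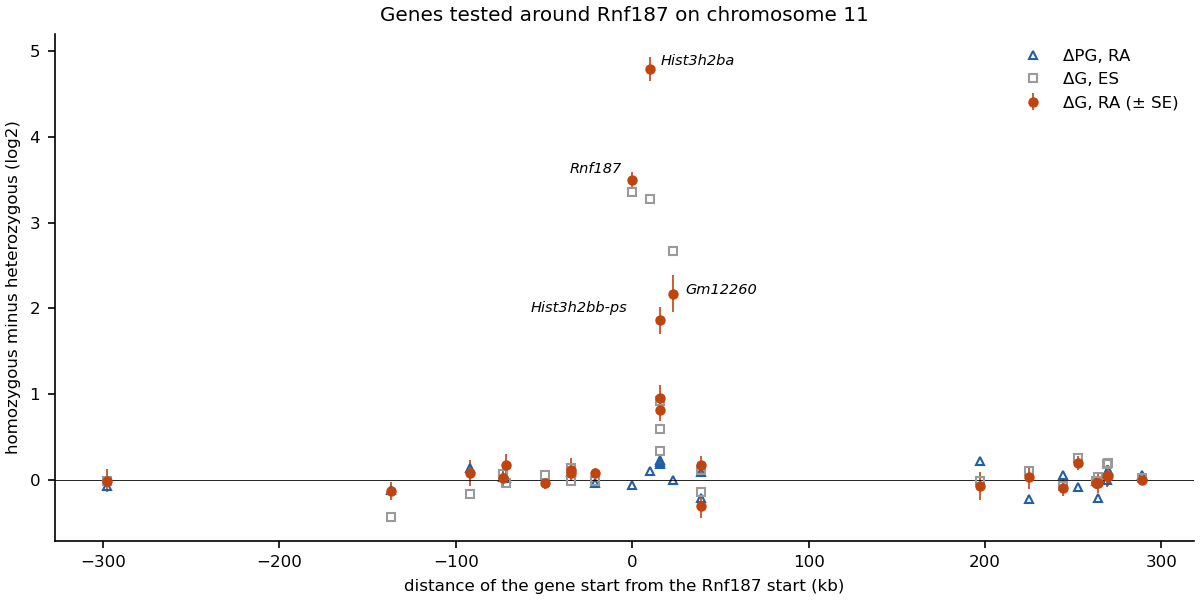
Distance of each gene's start from the Rnf187 start (x axis, kb) against the homozygous minus heterozygous difference (y axis, log2) of the genes tested within 300 kb. Red circles with SE are ΔG after RA, grey squares ΔG without RA and blue triangles ΔPG after RA, and the ΔG differences over 0.5 all lie between 0 and 22.9 kb.

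Chd5, a chromatin remodeller gene on chromosome 4, had 4.29, 4.21 and 4.13 in heterozygous and 6.68, 6.83 and 6.71 in homozygous samples (difference 2.53 ± 0.11, adjusted p = 1.67e-12 in limma), and differed by 1.59 without RA. Efhc2 and Wnk3-ps on the X chromosome were higher by 1.23 and 1.24 after RA and by 1.58 and 1.23 without RA. Tinagl1, a matricellular protein of basement membranes, was not on the matrix list. It had 6.99, 7.09 and 6.99 against 8.26, 8.01 and 8.30 after RA (1.17 ± 0.08, adjusted p = 4.51e-09), while the means without RA were 7.76 and 7.85 (0.09, adjusted p = 0.524), and both differences differed by 1.08 (adjusted p = 1.58e-07). AY036118 differed by 1.74 after RA and by -0.67 without RA. The lowest differences after 5430416N02Rik were those of Gm10800 (-1.74), Col4a5, Col1a2, Tdpoz4, Gm11168 (-1.21), Cubn, Sepp1, B020004J07Rik and Gm16869. Sepp1, the selenium carrier selenoprotein P, had 6.49, 6.47 and 6.49 against 5.54, 5.22 and 5.44 (-1.08 ± 0.11, adjusted p = 6.49e-07). Gm10800, Gm11168 and AY036118 are gene models in repeated sequence, whose reads can come from other copies, so their values are uncertain. Gm16869 (-1.07) spans the position of Gm11168 on the opposite strand of chromosome 9. Its value is uncertain too, and the falls of both are not independent findings.

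Many of the lineage and matrix genes differed more after RA than before it. Some of them had low heterozygous and homozygous means without RA, where rlog understates differences: Krt7 (2.80 and 2.80), Hand1 (2.21 and 2.20) and Dab2 (3.31 and 3.56). Others had higher means there, such as Lama1 (8.88 and 8.46). The part of low values in the differences between RA and ES was not tested. Without RA 217 genes were called between the same lines (0.984% of the genes tested), 78 higher (0.354%) and 139 lower (0.63%). Of the 149 genes higher after RA, 24 were also called higher without RA (16.1% of the RA genes and 30.8% of the ES genes), and of the 322 lower genes 20 were also called lower (6.21% and 14.4%). Both comparisons bear the same clone numbers in the study's display but have no common sample. The difference between the RA and ES effects was called in 524 genes (2.38%), with 263 in the positive (1.19%) and 261 in the negative direction (1.18%), and it was called in 197 of the 471 genes called after RA. In the extraembryonic endoderm list it was called in Cubn (-1.18), Lama1, Srgn (-1.06), Dab2 (-0.95), Pdgfra (-0.67), Npl (-0.85) and Pth1r (-0.84), and in the other direction in Lrp2 (0.51) and Foxa1 (0.71). In the trophoblast list it was called in 7 of 16 genes, all positive, among them Krt19 (1.28), Tcfap2c (0.96), Hand1 (0.82), Krt7 (0.77), Esx1 (0.73) and Gata2 (0.66). For Col4a1 and Col4a2 the difference between both effects did not pass the test (-0.15 and -0.34, adjusted p = 0.412 and 0.182).

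**Figure D5:**
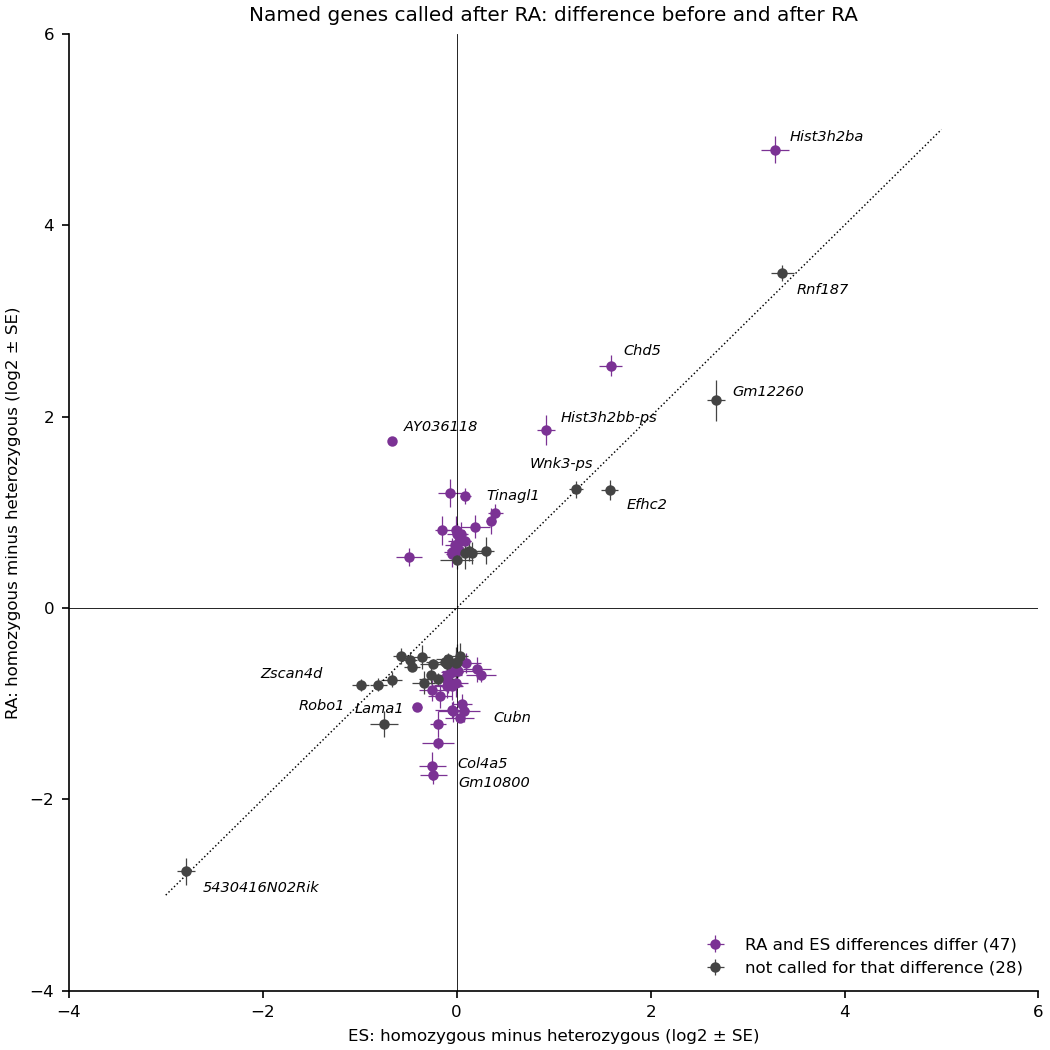
Homozygous minus heterozygous difference without RA (x axis, log2 ± SE) and after RA (y axis, log2 ± SE) of the named genes called after RA, with the dotted line marking equal differences. Purple points were called for the difference between both effects. 5430416N02Rik (-2.79 and -2.75) and Rnf187 (3.36 and 3.50) lie near the line, while Cubn (0.03 and -1.15) and Tinagl1 (0.09 and 1.17) lie near the vertical axis.

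The ΔPG lines give the same comparison in other lines, in a table that was normalized separately, so values stand side by side without a test between them. After RA 186 of 21979 genes were called in ΔPG by the same limits (0.846%), 53 higher (0.241%) and 133 lower (0.605%). Of the 37 extraembryonic endoderm genes 12 were called lower and none higher in ΔPG, with a median of -0.39. Cubn differed by -1.24 in ΔPG and -1.15 in ΔG, Lama1 by -0.95 and -1.03, Srgn by -0.94 and -1.0, Dab2 by -0.60 and -0.70, Col4a1 by -0.92 and -0.62 and Col4a2 by -0.82 and -0.58, all called lower in both. The other 2 of the 8 genes were not called in ΔPG, Pdgfra at -0.21 (adjusted p = 0.0516 in limma) and Npl at -0.39 (adjusted p = 0.13). Of the factors that were not called in ΔG, Gata4 (-0.80, adjusted p = 0.00682) and Sox17 (-0.50, adjusted p = 0.0569) were called lower in ΔPG, Sox17 at the size limit, while Gata6 differed by -0.40 (adjusted p = 0.0149), under it. Col4a5 differed by -0.19 (adjusted p = 0.579 in limma) and Col1a2 by 0.23 (adjusted p = 0.0318) in ΔPG, neither called there. None of the 16 trophoblast genes was called in ΔPG, where the list median was -0.10. In the two-cell-like list Zscan4d, Zscan4c and Zscan4f were called higher in ΔPG (0.81, 0.81 and 0.70) and lower in ΔG. Of the 149 genes higher in RA-treated ΔG, 1 was called higher and 4 lower in RA-treated ΔPG, and of the 322 lower genes 19 were called lower (5.9% of the ΔG genes and 14.3% of the ΔPG genes) and 23 higher. The p53 target list had 13 of 17 members called lower in ΔPG and none in ΔG, beside 0.605% (ΔPG) and 1.46% (ΔG) of all genes tested.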

How the data were processed

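RNA-seq values of 24 samples were used, and the 6 RA-treated ΔG samples are described here. Per the labels and the study's methods, the authors made ribosomal RNA-depleted stranded libraries, mapped the reads to NCBI37/mm9 with TopHat2 2.1.0, counted them by strand with HTSeq 0.6.0 and GENCODE gene models, and normalized the counts with DESeq2 1.14.1. What they deposited is log2 data: 1 table of rlog values for each line. Each lists 33924 genes, of which 22048 (ΔG) and 21979 (ΔPG) varied between samples and were tested, and the others were 0 in every sample. Use of the groups in this transformation is not given in the sources used here. Depth is unknown, so no counting interval is given.

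Samples were grouped by the labels. Each comparison was fitted to its own 6 samples in limma 3.58.1 under R 4.3.3, using lmFit and trended eBayes, with p-values adjusted by Benjamini-Hochberg over all genes tested, and genes were called at an adjusted p under 0.1 and an absolute difference over 0.5. The RA effect minus the ES effect was fitted over the 12 samples of the ΔG table. The scripts were tested on simulated data. Of 715 entries in 28 gene lists, 702 were matched by symbol and 8 by a RefSeq synonym. Rhox5, Sox1, Zscan4a, Tcstv1 and Tcstv3 were not matched. Members and lists were chosen with earlier results of these data known. Named genes are 5430416N02Rik, Lin54, Sec31a and Mid1, the 10 largest rises and 10 largest falls with separate groups, the first 2 members and up to 6 called members of each list, and the 5 largest differences between RA and ES. Some genes that this rule names are not reported here. Other list members and genes were named after their values were seen. Alternatives were other limits, scalings, filters, variance models, GC and length corrections, a replicate block and leaving out each replicate. Summaries were made in Python 3.11.15 using pandas 2.3.3 and numpy 2.4.6. 4C-seq regions were not used here, and Capture-C and RIP-seq data were not analysed here.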

Additional observations from a re-analysis of the deposited data

Results flagged for a closer look

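The difference between genotypes was not the same with and without RA in 524 genes, by the test of the RA effect minus the ES effect over 12 samples in limma (adjusted p under 0.1 and an absolute difference over 0.5). Values are given on the log2 scale, with positive values where homozygous cells were higher relative to heterozygous cells after RA than without it, and no explanation was tested. For genes with low values without RA, the ES difference is understated by the rlog transformation. Among genes of endoderm and matrix, those called for this difference were Lama1 (-0.62), Cubn (-1.18), Srgn (-1.06), Dab2 (-0.95), Pdgfra (-0.67), Npl (-0.85), Fras1 (-0.61), Col4a5 (-1.40), Col1a2 (-1.22), Emid2 (-0.65), Bgn (0.68), Adamts1 (-0.71), Itga8 (-0.60), Cdh11 (-0.62), Pth1r (-0.84), Lrp2 (0.51), Foxa1 (0.71) and Tinagl1 (1.08). Genes of trophoblast and epithelium called for this difference were Gata2 (0.66), Hand1 (0.82), Tcfap2c (0.96), Esx1 (0.73), Krt7 (0.77), Krt19 (1.28) and Cldn4 (0.61). Genes of signalling, guidance and the RA response called for this difference were Rarb (0.63), Crabp1 (-0.71), Rxrg (-0.59), Cdx1 (0.56), Fgf5 (-0.76), Spry1 (1.02), Wnt6 (0.67), Wnt7b (0.63), Dll4 (0.62), Sema6d (-0.77) and Slit2 (-0.67). Other genes called for this difference were Cdh5 (0.79), Tie1 (0.66), Egflam (-1.0), Ptn (-0.96), Grhl3 (0.87), Usp9y (-1.0), Hist3h2ba (1.52), Hist3h2bb-ps (0.94), Chd5 (0.95), AY036118 (2.41), Gm10800 (-1.51), Gm11168 (-1.01), Gm16869 (-1.02), B020004J07Rik (-1.04), Sepp1 (-1.16), Xist (1.26), Tubb3 (0.60), H19 (0.61), Dlk1 (0.60), Prrx1 (-0.62), Dub1 (-0.76) and Zfp352 (-0.60). In Prom1 the homozygous cells were lower without RA (-1.18) and differed by -0.16 after it, and in AY036118 and Krt19 the difference had opposite signs with RA (1.74 and 0.46) and without RA (-0.67 and -0.82).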

How the results depend on the processing

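All 16 alternatives to the settings of the RA comparison were run. At stricter limits, an adjusted p of 0.05 and a fold change of 1.5, 275 genes were called after RA (81 higher and 194 lower) and 268 for the difference between RA and ES. With no limit on the size of the difference these were 2433 (1070 higher and 1363 lower) and 1164, and 14 extraembryonic endoderm and 13 basement membrane genes were called lower and 9 trophoblast genes higher. Under the other scalings, filters, trend corrections and variance models, 353 to 446 genes were called after RA, and the share of higher genes was 32.6% to 39.1% of the called genes, beside 31.6%. A fit over all 12 samples of the ΔG table called 471 genes. Leaving out each replicate in turn gave 471 to 532 genes after RA (154 to 171 higher, 317 to 367 lower), 419 to 472 for the difference between RA and ES, 8 to 9 extraembryonic endoderm, 5 to 7 basement membrane and 7 to 9 two-cell-like genes lower and 5 trophoblast genes higher.

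The replicate numbers of the labels did not pair the samples: the deviations from the group means of same-numbered homozygous and heterozygous samples correlated at -0.0176, 0.00829 and 0.0128. With the number as a replicate block 473 genes were called after RA (150 higher, 323 lower) and 519 for the difference between RA and ES.

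Of 2119 values of named genes under the alternatives, 57 lost the call, 24 gained it and 2037 stayed on their side of the limits. Among the latter, 22 values of 9 genes that were not called had the opposite sign, all of genes whose difference was at most 0.09 in size. The 1 remaining value is that of H19, whose difference was no longer positive (0.00) under quantile normalization, a setting that sets the highest values of all samples equal. Of the 86 named genes that were called, 67 were called under every alternative that kept them. The cause of the other losses was not tested, and they concern mostly genes near the size limit, such as Unc5c, Ncam1, Col4a6, Loxl1 and Wnt4. The main limits are the single clone number that the study's display gives per genotype, 3 samples per group, an unknown depth, and the shrinkage of low values.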

Other observations

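Some called genes outside the lists were singled out after their values were seen, and no test was made for their themes. Cdh5 and Tie1 were among those higher in homozygous cells. Cdh5, the endothelial cadherin, had 3.19, 3.55 and 3.34 in heterozygous and 4.01, 4.36 and 4.13 in homozygous samples (difference 0.81), and Tie1, an endothelial receptor kinase, had 2.99, 3.08 and 3.04 against 3.61, 3.68 and 3.76 (0.64). Tgm1, a transglutaminase of the cornified layer, was higher by 0.90 (also called without RA, at 0.71) and the epithelial factor gene Grhl3 by 0.78. Among genes lower in homozygous cells, Egflam, which encodes the matrix protein pikachurin, had 3.99, 4.09 and 3.74 against 2.88, 2.71 and 3.19 (-1.01). Ptn, the growth factor pleiotrophin, had 5.84, 6.07 and 5.97 against 4.92, 4.91 and 5.04 (-1.0). Mttp, which loads lipid onto lipoproteins as visceral endoderm does, had 6.95, 6.92 and 6.90 against 6.17, 5.96 and 6.05 (-0.86, and also called without RA, at -0.67). All of these groups were separated.

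Genes of the sex chromosomes also differed. Xist, the RNA that silences an X chromosome, had 2.96, 2.87 and 2.66 in heterozygous and 4.01, 3.96 and 4.12 in homozygous samples (1.20), and the Y-linked genes Usp9y and Uty were lower by -0.85 and -0.52. Without RA, Xist, Usp9y and Uty differed by -0.07, 0.14 and -0.32, none called. Over genes with a mean rlog of at least 3, the median difference after RA was -0.03 on the X chromosome (430 genes) and -0.34 on the Y chromosome (8 genes). Without RA these medians were -0.01 and -0.10. Of 985 genes tested on the X chromosome 34 were called after RA (3.45%), and of 11 on the Y chromosome 2 (18.2%). These shares stand beside 2.14% of all genes tested and up to 2.79% on any other chromosome (chromosome 5). Uty lost the call without the first homozygous (-0.50), the second homozygous (-0.50) or the first heterozygous sample (-0.47).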
